A study of Homo sapiens with 9 samples.

Results

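The collagen genes were taken as every gene in the deposited gene tables whose symbol is COL, a number, A and a number with nothing after it. This rule found 44 of 57733 genes, the same 44 in all 9 libraries. By class they are 11 fibrillar genes, 10 FACIT genes (fibril-associated collagens with interrupted triple helices), 6 type IV genes of the basement membrane network, 5 type VI genes of beaded filaments, 4 transmembrane genes, 3 short-chain network genes, 2 multiplexin genes, 1 anchoring fibril gene and 2 others. All libraries come from PANC-1, an established human pancreatic ductal carcinoma cell line. The lines are KO C22 and KO C28, in which KDM6A (UTX, a demethylase of a repressive histone H3 mark) was targeted with CRISPR/Cas9, and a control line, WT, that received no guide RNA. Each KO line is 1 clone, so clone and knockout cannot be told apart within a line, and the labels do not say whether the control line was cloned. In every library cells were given 2 mM bromouridine for 30 min and RNA was collected with 0 h of chase, so the captured RNA is recently made and includes introns. Bru-seq has 2 libraries for each line. BruUV-seq, in which cells also received 100 J/m2 of ultraviolet light, has 1 library for each line. The labels do not say that replicates are separate cultures, so the p-values below measure only the spread between these libraries.

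Collagens are triple-helical proteins of the extracellular matrix, each built from 3 alpha chains that are the products of 1 or more COL genes. Fibrillar collagens form the tensile fibres, FACITs sit on fibril surfaces, type IV collagens form the sheet of the basement membrane that carcinoma cells stand on or cross, and transmembrane collagens are held in the cell membrane. In pancreatic ductal carcinoma much of the fibrillar collagen is made by stromal fibroblasts and stellate cells, while the tumour cells make basement membrane collagens and some others. Several collagen genes lie side by side in the genome, and 3 pairs of type IV genes are transcribed in opposite directions from a shared stretch of promoter.

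Reads assigned to genes numbered 5.64 M to 31.1 M per library, and the lowest was KO C28 Bru-seq replicate 2. Reads outside genes made up 46.5% of that library and 9.93% to 20.01% of each of the others. The median collagen gene stood at 0.0689 RPKM (reads scaled by gene length and library size) in it, against 0.0105 to 0.0294 RPKM in the others. By CPM (counts per 1 M reads in genes after TMM scaling of library sizes), 26 of the 44 collagen genes had their highest level there. Each comparison that uses KO C28 is therefore given with and without that library where it matters. KDM6A itself had 253 and 440 CPM in KO C22 Bru-seq, 324 and 77.8 CPM in KO C28 and 318 and 283 CPM in WT. A count over the whole gene does not check the edited site. In bulk RNA, fewer cells of a type and less RNA per cell cannot be told apart.

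Most collagen genes were barely transcribed in these cells. Only 25 of the 44 averaged at least 50 reads per library, and 23 had under 10 reads in at least 1 library. On the per-length RPKM scale, 8 genes led over the 9 libraries. COL18A1, the source of endostatin, averaged 5.33 RPKM, COL7A1 of anchoring fibrils 1.71 RPKM and COL11A1, a fibrillar chain, 1.60 RPKM. They were followed by COL13A1 at 0.467 RPKM, COL1A1 at 0.439 RPKM, COL5A2 at 0.397 RPKM, COL4A5 at 0.252 RPKM and COL6A1 at 0.238 RPKM. The other 36 averaged between 0.0064 RPKM (COL2A1, the cartilage fibril chain) and 0.163 RPKM (COL9A3). These means mix both assays and all lines, and WT Bru-seq alone gave another order. There COL11A1 averaged 3.03 RPKM, COL18A1 2.22 RPKM, COL5A2 1.14 RPKM, COL4A5 0.579 RPKM and COL7A1 0.126 RPKM. COL7A1 had 6.51 RPKM in KO C22 BruUV-seq and 5.53 RPKM in KO C28 BruUV-seq.

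In Bru-seq the fibrillar genes led in WT and the multiplexins in KO C28, and the KO C22 replicates were split. The summed level of the fibrillar genes was 1.89 and 3.82 RPKM in KO C22 Bru-seq, 0.700 and 1.47 RPKM in KO C28 and 4.67 and 4.17 RPKM in WT, so each KO Bru-seq library lay below both WT Bru-seq libraries. In BruUV-seq it was 3.25 RPKM in KO C22, 1.55 RPKM in KO C28 and 2.91 RPKM in WT, so there KO C22 lay above WT. In WT Bru-seq COL11A1 alone held 3.19 and 2.87 RPKM of these sums, and COL5A2 1.33 and 0.942 RPKM. In the fit of both assays described below, 6 of 9 fibrillar genes were above WT in KO C22, and 7 of 9 in KO C28. The multiplexins summed to 1.53 and 3.85 RPKM in KO C22 Bru-seq, 1.93 and 3.88 RPKM in KO C28 and 1.26 and 3.19 RPKM in WT, and these ranges overlap. In BruUV-seq the multiplexins led in all 3 lines, at 10.9 RPKM in KO C22, 15.3 RPKM in KO C28 and 6.18 RPKM in WT. COL18A1 held nearly all of the multiplexin level, with 1.26 and 3.18 RPKM in WT Bru-seq. Of single genes, COL11A1 took 35.9% and 49.1% of all reads in collagen genes in KO C22 Bru-seq, 15.4% and 2.52% in KO C28 and 56.8% and 45.9% in WT. COL18A1 took 19.9% and 26.7% in KO C22, 40.0% and 41.4% in KO C28 and 10.5% and 23.9% in WT. KO C28 was thus the line with the lowest share in COL11A1 and the highest in COL18A1 in both Bru-seq replicates.

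From here levels are CPM with the same TMM scaling over the 9 libraries, and for each line the values are those of Bru-seq replicate 1, Bru-seq replicate 2 and the BruUV-seq library, in that order. Differences are log2 fold changes with their standard errors (SE) from edgeR's quasi-likelihood test, either on the 6 Bru-seq libraries or on all 9 with the assay as a term, with p-values adjusted by Benjamini-Hochberg over all genes tested. A gene passes at an adjusted p under 0.05. Of the 44 genes, 42 had enough reads to be tested in Bru-seq and 41 in both assays. COL10A1, the chain of hypertrophic cartilage, and COL2A1 were tested in neither fit, and COL1A2, the partner of COL1A1 in type I collagen, in Bru-seq alone.

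In the fit of both assays, 1 of 41 collagen genes passed in KO C22 against WT, beside 0.178% of all genes tested, and 1 of 41 in KO C28 against WT, beside 0.125% of all genes. It was COL5A2 in each case, and these comparisons share the WT libraries. With Bru-seq alone, 0 of 42 passed in KO C22 (0.00438% of all genes), 0 of 42 in KO C28 (0.00438%) and 0 of 42 in KO C28 against KO C22 (0%). At an unadjusted p under 0.05, edgeR counted 6, 7 and 2 collagen genes in those 3 Bru-seq comparisons, beside 2.01%, 6.28% and 3.27% of all genes. DESeq2 called 2, 3 and 1 collagen genes in the same libraries, beside 0.399%, 0.898% and 0.232% of all genes, and limma-voom called 0 in each.

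Across the whole family the fitted differences leaned upward in both clones. In both assays the median log2 fold change of the 41 genes was 0.90 in KO C22, beside 0.03 for all genes tested, and 29 of 41 were above 0. In KO C28 the median was 1.83, beside -0.06 for all genes, and 33 of 41 were above 0. With an offset for gene length these medians were 0.58 in KO C22 and 1.205 in KO C28, beside 0.01 and -0.02. With Bru-seq alone the KO C22 median was 0.94, beside 0.07 for all genes. Leaving out KO C22 Bru-seq replicate 1 made it 0.38, beside -0.23. KO C28 Bru-seq replicate 2 moved the KO C28 value of 1.83. Without it the median was 0.61, beside -0.01 for all genes, and with Bru-seq alone it was -0.23 in place of 1.69. At an unadjusted p under 0.05 KO C22 had 10 collagen genes, beside 5.86% of all genes, of which 8 were higher (3.2% of all genes) and 2 lower (2.66%). KO C28 had 20, beside 10.5% of all genes, of which 17 were higher (7.55%) and 3 lower (2.91%). Without that library it had 2 higher, beside 2.45% of all genes, and 4 lower, beside 2.92%. In that fit 3 of 41 passed in KO C22, beside 0.646% of all genes, and 4 of 41 in KO C28, beside 0.305%. The plot of fold changes by class shows the long error bars of the low genes.

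**Figure D1:**
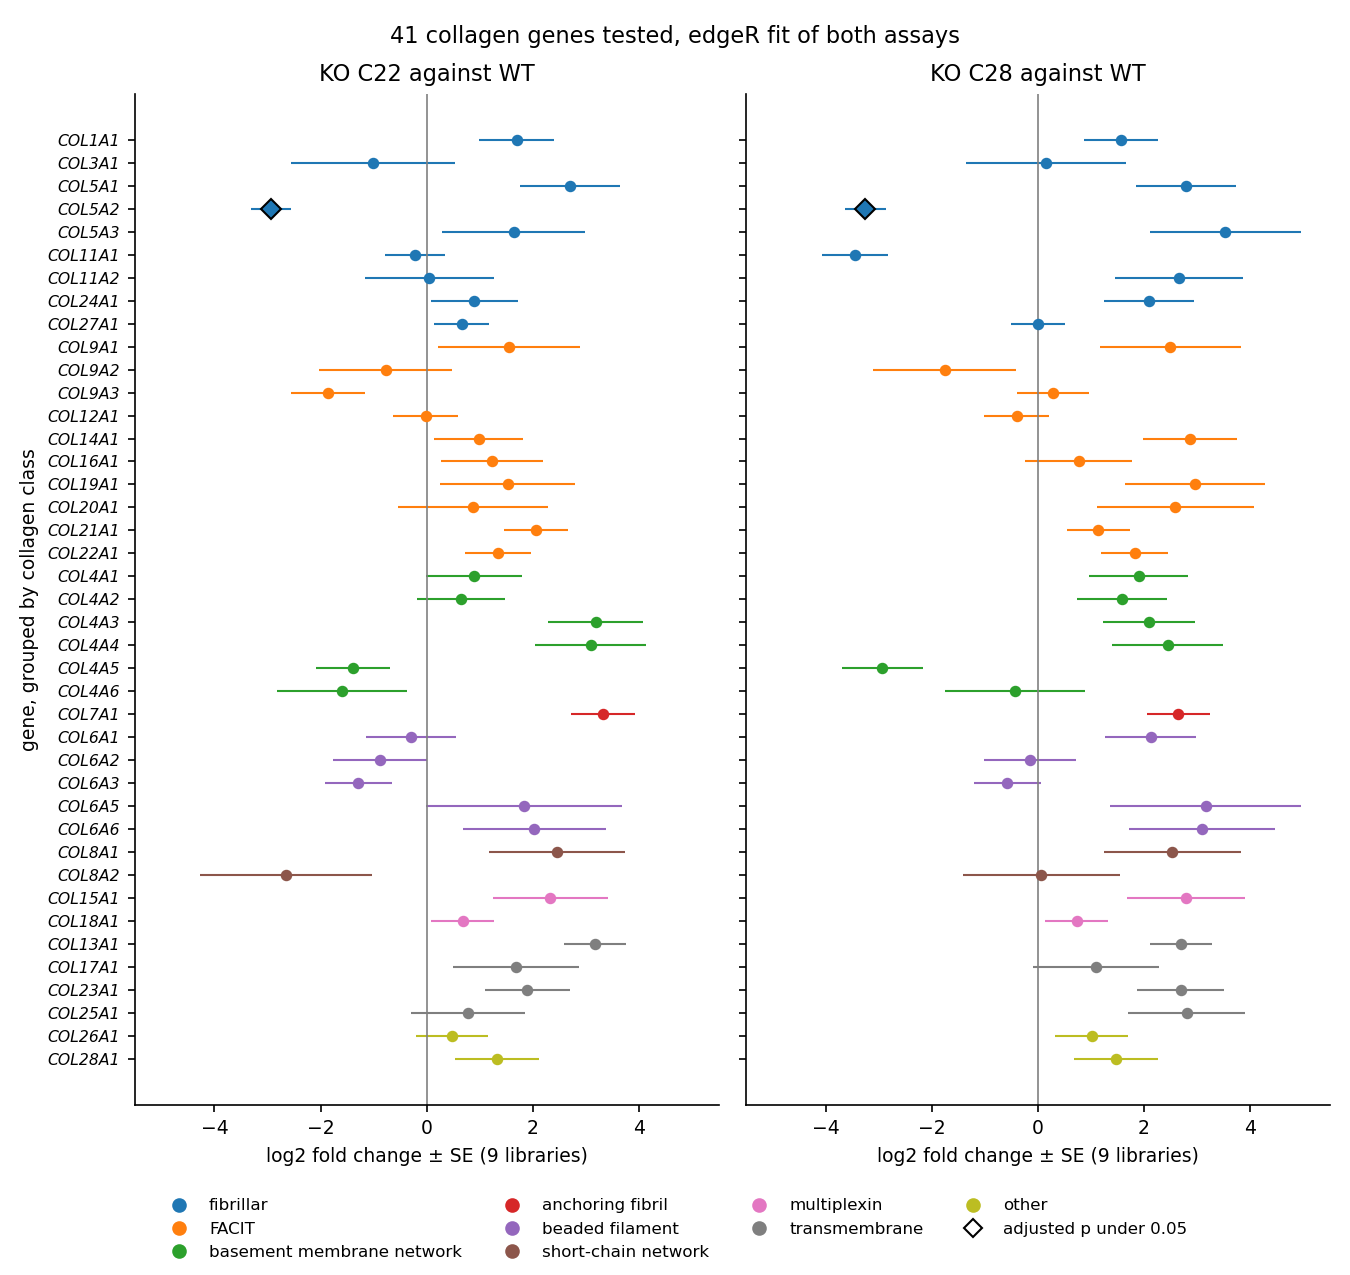
Log2 fold change (x axis) of the 41 collagen genes tested in both assays, grouped by class down the page, in KO C22 against WT (left panel) and KO C28 against WT (right panel). Points are edgeR estimates, bars are 1 SE, and diamonds mark the gene that passed, COL5A2, which sits at -2.94 in KO C22 and -3.25 in KO C28 while most other genes lie above 0 with wide bars.

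Among the fibrillar genes, COL5A2 was the one that passed. At an unadjusted p under 0.05 there were 3 of 9 fibrillar genes in KO C22, beside 5.86% of all genes. In KO C28 there were 7 of 9, beside 10.5% of all genes. Both counts take either direction. Without KO C28 Bru-seq replicate 2 the whole family of 41 had 2 higher in KO C28, beside 2.45% of all genes, and 4 lower, beside 2.92%. The fibrillar genes alone are not counted for that fit. COL5A2 encodes the alpha 2 chain of type V collagen, which co-assembles with type I collagen and limits fibril width. The gene is ENSG00000204262.11, on the minus strand at chr2:189031896-189179879 in hg38, 148 kb long. It had 20.4, 33.1 and 12.1 CPM in KO C22, 16.2, 22.1 and 14.5 CPM in KO C28 and 232, 176 and 107 CPM in WT. Every KO library lay well below every WT library, in both assays, and the KO clones overlapped each other. In Bru-seq this is 26.7 ± 9.04 CPM in KO C22, 19.2 ± 4.12 CPM in KO C28 and 204 ± 39.9 CPM in WT (SD, n = 2 each). COL5A2 fell 7.66-fold in KO C22 (log2 fold change -2.94, SE 0.38, edgeR adjusted p = 0.0152) and 9.51-fold in KO C28 (-3.25, SE 0.39, edgeR adjusted p = 0.0111). Over the 16 alternatives the log2 fold change stayed between -3.26 and -2.78 in KO C22 and between -3.42 and -2.98 in KO C28. The call was lost without any 1 of the 3 WT libraries, or without the clone's own BruUV-seq library, at adjusted p-values of 0.0790 to 0.142 in KO C22 and 0.0507 to 0.105 in KO C28. In KO C22 it was also lost without KO C22 Bru-seq replicate 1 (adjusted p = 0.0617).

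**Figure D2:**
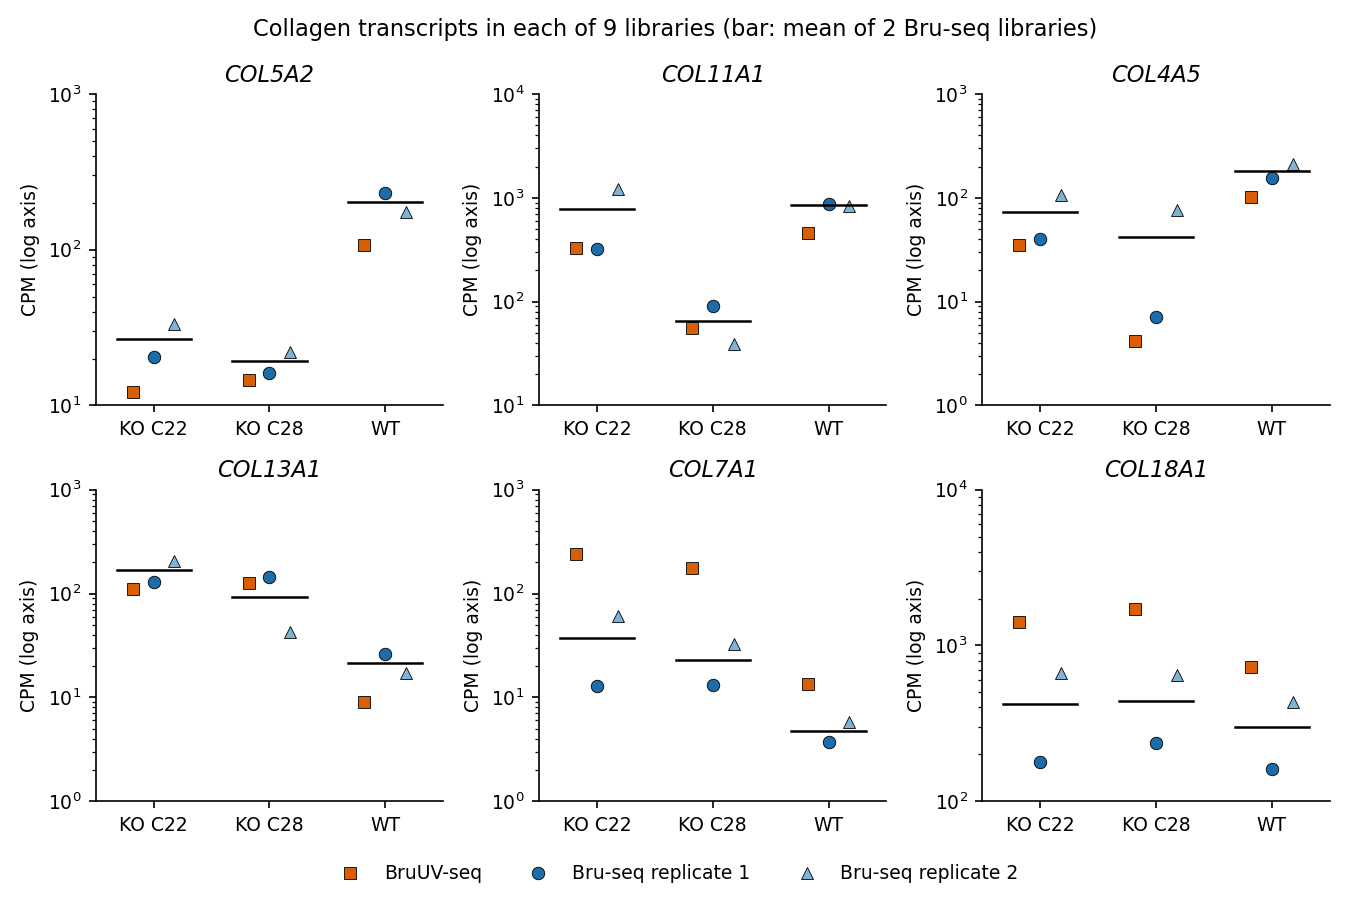
CPM (log axis) of 6 collagen genes in each library of KO C22, KO C28 and WT. Circles are Bru-seq replicate 1, triangles Bru-seq replicate 2, squares BruUV-seq, and bars the mean of the 2 Bru-seq libraries. All COL5A2 points of the clones (12.1 to 33.1) lie below all WT points (107 to 232), whereas COL18A1 ranges overlap.

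COL5A2 ends 19.1 kb from the end of COL3A1, which encodes the type III chain of reticular fibres and runs the other way. COL3A1 had 0, 0.960 and 0.299 CPM in KO C22, 0, 2.05 and 1.22 CPM in KO C28 and 0.679, 0.758 and 1.27 CPM in WT. The ranges overlap, and no library had more than 30 reads in it. Its fitted log2 fold changes were -1.01 (KO C22, SE 1.54) and 0.16 (KO C28, SE 1.51), which at this depth cannot show whether it moved with COL5A2. Without KO C28 Bru-seq replicate 2 the KO C28 value was -1.17. The other tested genes within 500 kb of COL5A2 were GULP1, AC092598.1, WDR75, ASNSD1 and ANKAR, and 0 of these 5 passed in either clone. Their log2 fold changes ran between -0.41 (GULP1) and 1.79 (AC092598.1, SE 1.46) in KO C22 and between -0.80 (GULP1) and 3.03 (AC092598.1, SE 1.54) in KO C28.

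**Figure D3:**
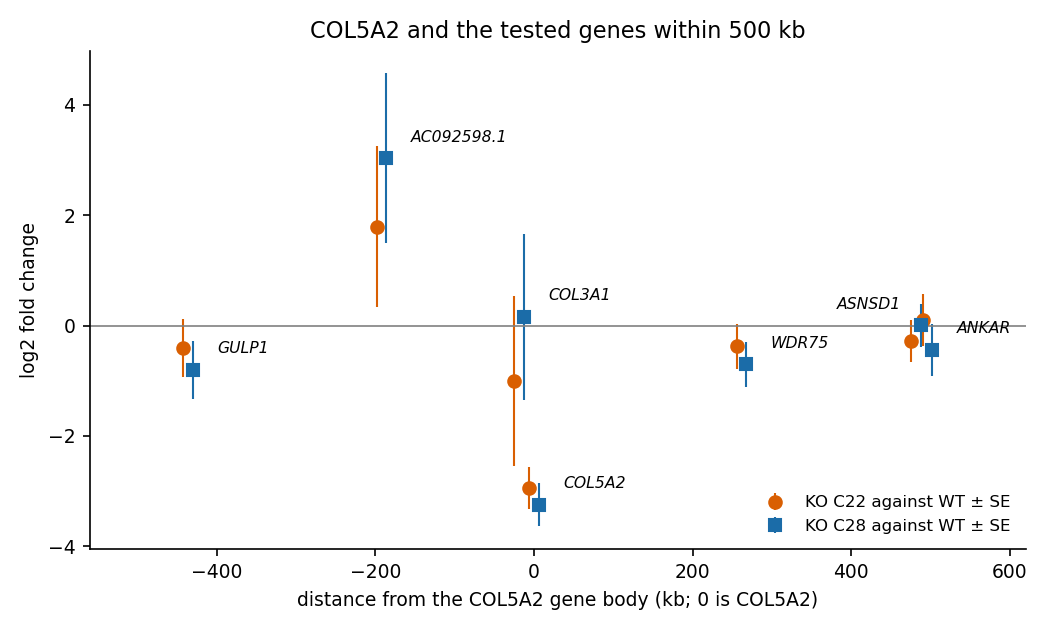
Log2 fold change against WT (y axis, bars 1 SE) of COL5A2 and the tested genes around it by distance along the chromosome in kb, for KO C22 and KO C28. COL5A2 is at -2.94 and -3.25, while GULP1, WDR75, ASNSD1 and ANKAR lie between -0.80 and 0.10 and COL3A1 and AC092598.1 have wide bars.

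COL11A1 encodes the alpha 1 chain of type XI collagen, a minor fibril component best known in cartilage, and is transcribed from the minus strand at chr1:102876467-103108496. It had 324, 1225 and 327 CPM in KO C22, 90.8, 39.3 and 55.7 CPM in KO C28 and 869, 837 and 462 CPM in WT. All 3 KO C28 libraries lay below all WT and all KO C22 libraries, and KO C22 overlapped WT, with 1 of its libraries the highest of all 9. The log2 fold change in KO C28 was -3.44 (SE 0.62), a 10.9-fold difference that did not pass in edgeR (adjusted p = 0.0737). It passed in 6 of 16 alternatives, among them limma-voom (adjusted p = 0.0273), the fit without KO C22 Bru-seq replicate 2 (adjusted p = 0.0222) and the fit without KO C28 Bru-seq replicate 2 (-3.05, adjusted p = 0.0472). In KO C22 the value was -0.22 (SE 0.56), and it was 0.08 without KO C22 Bru-seq replicate 1.

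The chains of type I and the other type V chains were low. COL1A1, the main chain of type I collagen, had 3.63, 5.39 and 36.9 CPM in KO C22, 3.43, 11.6 and 16.3 CPM in KO C28 and 0.905, 3.92 and 5.02 CPM in WT. In each assay the highest library was of a KO clone, but the Bru-seq ranges overlap. Its log2 fold changes were 1.69 (KO C22, SE 0.71) and 1.56 (KO C28, SE 0.70), or 0.93 in KO C28 without KO C28 Bru-seq replicate 2. COL5A1, the chain that makes up most type V molecules with COL5A2, had 16.1, 18.8 and 39.2 CPM in KO C22, 1.10, 59.8 and 24.4 CPM in KO C28 and 2.31, 5.01 and 4.04 CPM in WT. KO C22 lay above WT in all libraries, on the opposite side from COL5A2, and KO C28 Bru-seq replicates lay below and above WT. The log2 fold change of COL5A1 was 2.70 (KO C22, SE 0.94, edgeR adjusted p = 0.592) and 2.79 (KO C28, SE 0.94, edgeR adjusted p = 0.457), or 0.80 without KO C28 Bru-seq replicate 2. COL5A3, a type V chain of more restricted tissues, had 1.86, 0.640 and 0.524 CPM in KO C22, 0.0613, 13.2 and 1.44 CPM in KO C28 and 0.317, 0.253 and 0.340 CPM in WT. In KO C28 its level rests on 1 library, and the log2 fold change of 3.53 (SE 1.43) became 1.03 without it. Of the remaining fibrillar genes tested in both assays, COL11A2, COL24A1 and COL27A1, 0 passed, and their log2 fold changes were 0.05 to 0.90 in KO C22 and 0.00 to 2.67 in KO C28. COL11A2 and COL24A1 had their highest RPKM in KO C28 Bru-seq replicate 2, at 0.165 and 0.177.

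Among the 10 FACIT genes 0 passed in either clone in edgeR. At an unadjusted p under 0.05 there were 2 in KO C22 and 3 in KO C28, beside 5.86% and 10.5% of all genes. COL9A1, COL9A2 and COL9A3 encode the chains of type IX collagen of cartilage. COL9A3 had 0.573, 1.32 and 2.32 CPM in KO C22, 2.39, 5.12 and 14.4 CPM in KO C28 and 3.21, 4.93 and 6.21 CPM in WT. Each KO C22 library lay below every WT library, and KO C28 overlapped WT. Fitted log2 fold changes were -1.86 (KO C22, SE 0.69) and 0.29 (KO C28, SE 0.68). COL9A2 had 0.143, 0.777 and 0.899 CPM in KO C22, 0.245, 0 and 0.744 CPM in KO C28 and 0.226, 1.68 and 0.978 CPM in WT, with overlapping ranges. Its log2 fold changes were -0.78 (KO C22, SE 1.26) and -1.76 (KO C28, SE 1.35), or -1.17 in KO C28 without KO C28 Bru-seq replicate 2.

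COL9A1 lies 5.1 kb from COL19A1, tail to tail, on chromosome 6. COL9A1 had 1.72, 0.183 and 0.299 CPM in KO C22, 0.674, 8.04 and 0.106 CPM in KO C28 and 0.815, 0.253 and 0.0425 CPM in WT. COL19A1, a rare basement membrane zone FACIT, had 7.74, 0.0914 and 0.524 CPM in KO C22, 2.57, 27.2 and 1.17 CPM in KO C28 and 2.35, 0.505 and 0.212 CPM in WT. Both genes were highest in KO C28 Bru-seq replicate 2, and in Bru-seq both clones overlapped WT except that COL19A1 in KO C28 lay above it. Their log2 fold changes were 1.55 (SE 1.33) and 1.53 (SE 1.27) in KO C22, and 2.498 (SE 1.33) and 2.96 (SE 1.32) in KO C28. The KO C28 values were 0.55 for COL9A1 and 1.71 for COL19A1 without KO C28 Bru-seq replicate 2. COL14A1, which binds type I fibrils, had 5.02, 3.88 and 0.599 CPM in KO C22, 3.55, 41.5 and 1.59 CPM in KO C28 and 1.49, 1.90 and 0.595 CPM in WT. In Bru-seq both replicates of each clone lay above WT. Its log2 fold change of 2.86 (SE 0.88) in KO C28 was 1.41 without KO C28 Bru-seq replicate 2. In KO C22 it was 0.98 (SE 0.84). For the other 5 FACITs, COL12A1, COL16A1, COL20A1, COL21A1 and COL22A1, log2 fold changes were -0.02 to 2.06 in KO C22 and -0.40 to 2.59 in KO C28. COL20A1 and COL22A1 had their highest RPKM in KO C28 Bru-seq replicate 2, at 0.0478 and 0.0987.

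The type IV genes form 3 head-to-head pairs, and they are shown as sequence because both genes of a pair start from the same short stretch. In the files the gap between the paired genes is 117 bp for COL4A1 and COL4A2, 451 bp for COL4A4 and COL4A3 and 409 bp for COL4A6 and COL4A5, and the RefSeq start sites are 126, 418 and 379 bases apart. The sequences below are from RefSeq on GRCh38.p14, plus strand, 5′ to 3′, and give up to 250 bases ahead of the start of the second gene of each pair, kept outside both gene bodies. They lie at chr13:110307158-110307266, chr2:227164374-227164564 and chrX:108439588-108439837. Capitals mark the CCAAT box and the motif GGGCGG on either strand, and no match says only that these letters are not in the window.
COL4A1/COL4A2: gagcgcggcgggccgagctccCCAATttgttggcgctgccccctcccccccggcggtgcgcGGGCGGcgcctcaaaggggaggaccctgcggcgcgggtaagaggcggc
COL4A4/COL4A3: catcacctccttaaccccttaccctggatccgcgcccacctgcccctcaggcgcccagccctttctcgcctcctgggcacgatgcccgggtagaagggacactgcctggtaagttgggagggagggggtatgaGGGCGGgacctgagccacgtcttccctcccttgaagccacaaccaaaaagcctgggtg
COL4A6/COL4A5: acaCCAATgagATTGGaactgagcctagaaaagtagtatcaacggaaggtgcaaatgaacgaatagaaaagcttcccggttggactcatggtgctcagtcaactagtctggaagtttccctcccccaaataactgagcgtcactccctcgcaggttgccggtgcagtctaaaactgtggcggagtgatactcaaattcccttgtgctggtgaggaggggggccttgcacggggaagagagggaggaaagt
The COL4A1/COL4A2 stretch holds 1 CCAAT and 1 GGGCGG, COL4A4/COL4A3 holds 1 GGGCGG, and COL4A6/COL4A5 holds 2 CCAAT, in opposite directions, and no GGGCGG. In this order the stretches are 109, 191 and 250 bases long, so the counts are not all at the window length of the shares below. The COL4A4/COL4A3 and COL4A6/COL4A5 stretches cover part of their gaps, and the bases next to COL4A4 and COL4A6 are not shown. Of 35116 RefSeq promoter windows of 250 bases, 32.0% hold CCAAT, 42.6% hold GGGCGG, 10.7% hold TATAAA and 4.2% hold TGACTCA. Of the windows of the 32 collagen genes with an entry (44 windows), 12, 24, 8 and 0 hold these 4 motifs in the same order.

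COL4A5 was the most transcribed type IV gene by mean RPKM over the 9 libraries. In KO C28 BruUV-seq, however, it had 0.0159 RPKM, below COL4A2 (0.0726 RPKM) and COL4A1 (0.0380 RPKM). COL4A5 encodes the alpha 5 chain, used in basement membranes of the kidney glomerulus and of many epithelia, and runs along the plus strand at chrX:108439882-108697545. It had 39.8, 105 and 34.7 CPM in KO C22, 7.11, 76.6 and 4.20 CPM in KO C28 and 154, 210 and 103 CPM in WT. Within each assay every KO library lay below WT, and the KO C28 Bru-seq replicates lay far apart. Fitted log2 fold changes were -1.39 (KO C22, SE 0.70, edgeR adjusted p = 0.915) and -2.93 (KO C28, SE 0.76, edgeR adjusted p = 0.277). Without KO C28 Bru-seq replicate 2 the KO C28 value was -4.56 and passed (edgeR adjusted p = 0.00476). COL4A6, its partner, had 7.17, 5.85 and 0.749 CPM in KO C22, 2.51, 46.0 and 0.106 CPM in KO C28 and 9.14, 8.93 and 6.29 CPM in WT. Every KO library but KO C28 Bru-seq replicate 2, the highest of all, lay below the WT library or libraries of its assay. COL4A6 had a log2 fold change of -1.60 (KO C22, SE 1.23) and -0.43 (KO C28, SE 1.32), or -3.13 without that library, and it did not pass.

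The other 2 pairs were low, and their fitted differences from WT were above 0. COL4A3 encodes the alpha 3 chain, which joins alpha 4 and alpha 5 in the glomerular network. It had 2.77, 7.36 and 3.00 CPM in KO C22, 0.980, 5.70 and 0.956 CPM in KO C28 and 0.588, 0.716 and 0.255 CPM in WT. COL4A4, the alpha 4 chain, had 3.34, 8.73 and 3.15 CPM in KO C22, 0.551, 10.8 and 1.06 CPM in KO C28 and 0.407, 0.716 and 0.553 CPM in WT. Both genes were above all WT libraries in all KO C22 libraries, and in KO C28 this held for COL4A3, while COL4A4 overlapped WT. In KO C22 the log2 fold changes were 3.18 (SE 0.90) for COL4A3 and 3.09 (SE 1.05) for COL4A4, with edgeR adjusted p-values of 0.368 and 0.557. In KO C28 they were 2.10 (SE 0.87) and 2.45 (SE 1.05), and 1.21 and 0.64 without KO C28 Bru-seq replicate 2. Of the length of COL4A3, 62.4% lies under AC097662.1 on the opposite strand, and the sources used here do not say whether counting used strand. AC097662.1 had log2 fold changes of -0.44 in KO C22 and -0.67 in KO C28.

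COL4A1 and COL4A2 encode the chains of the most widespread basement membrane collagen. COL4A1 had 1.24, 2.38 and 3.89 CPM in KO C22, 0.490, 9.35 and 6.11 CPM in KO C28 and 1.09, 0.926 and 2.17 CPM in WT. COL4A2 had 2.29, 3.38 and 6.21 CPM in KO C22, 0.613, 10.7 and 15.2 CPM in KO C28 and 2.44, 1.47 and 3.70 CPM in WT. In both genes KO C28 held the lowest and the highest Bru-seq library. The log2 fold changes were 0.89 (SE 0.91) and 0.65 (SE 0.83) in KO C22, with 1.90 (SE 0.93) and 1.59 (SE 0.85) in KO C28, and without KO C28 Bru-seq replicate 2 the KO C28 values were 0.50 and 0.65.

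**Figure D4:**
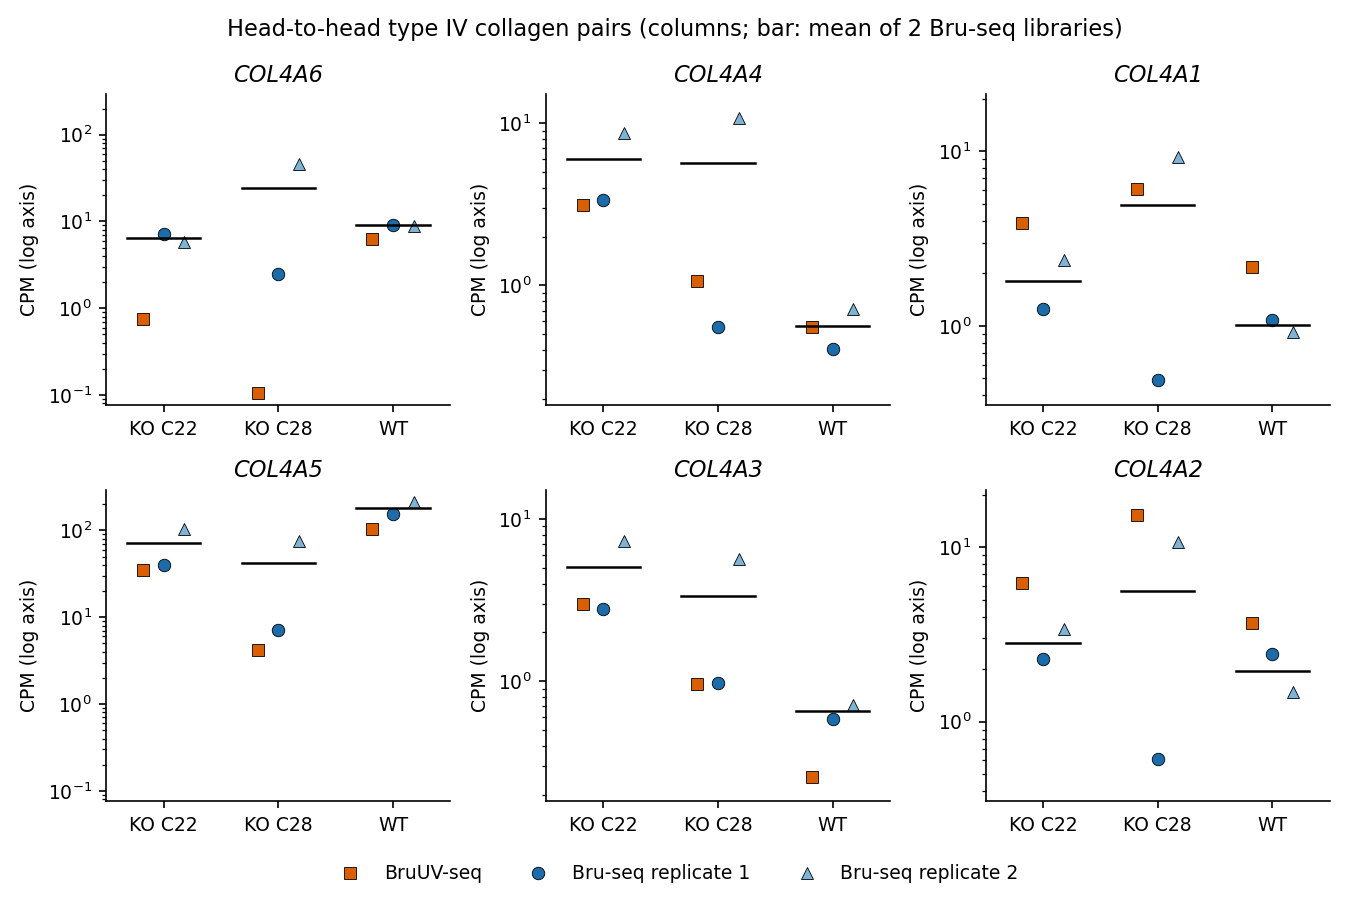
CPM (log axis) of the 3 head-to-head type IV gene pairs in each library of KO C22, KO C28 and WT; symbols mark the assay and replicate. COL4A5 is above COL4A6 in every library, and in KO C22 COL4A3 and COL4A4 (2.77 to 8.73) lie above their WT values (0.255 to 0.716).

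COL7A1, the collagen of the anchoring fibrils that fasten epithelial basement membranes to the stroma, is a short gene of 31.2 kb at chr3:48564073-48595267 on the minus strand. It had 12.8, 61.0 and 242 CPM in KO C22, 13.1, 32.6 and 176 CPM in KO C28 and 3.71, 5.85 and 13.5 CPM in WT. Within each assay every KO library lay above WT, and the replicates of each clone lay far apart, with Bru-seq means of 37.0 ± 34.1 CPM in KO C22, 22.8 ± 13.8 CPM in KO C28 and 4.78 ± 1.52 CPM in WT (SD, n = 2 each). On the log2 scale the fold change was 3.32 (KO C22, SE 0.605, 9.99-fold, edgeR adjusted p = 0.0638) and 2.65 (KO C28, SE 0.595, 6.26-fold, edgeR adjusted p = 0.162), so neither passed. In KO C22 it passed without KO C28 Bru-seq replicate 2 (adjusted p = 0.0424) and without KO C22 Bru-seq replicate 1 (adjusted p = 0.0283).

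COL13A1 is a transmembrane collagen of cell adhesion sites and the neuromuscular junction, on the plus strand at chr10:69801932-69959148. It had 129, 204 and 111 CPM in KO C22, 143, 42.2 and 126 CPM in KO C28 and 26.1, 17.2 and 9.10 CPM in WT. Every KO library lay above every WT library. Bru-seq means were 167 ± 52.9 CPM in KO C22, 92.6 ± 71.2 CPM in KO C28 and 21.6 ± 6.32 CPM in WT (SD, n = 2 each). On the log2 scale the fold change was 3.17 (KO C22, SE 0.59, 8.99-fold, edgeR adjusted p = 0.0656) and 2.70 (KO C28, SE 0.585, 6.51-fold, edgeR adjusted p = 0.145). Without KO C28 Bru-seq replicate 2 COL13A1 passed in KO C22 (3.19, adjusted p = 0.00390) and in KO C28 (3.24, adjusted p = 0.00717). The other transmembrane genes, COL17A1 of hemidesmosomes, COL23A1 and COL25A1, had log2 fold changes of 0.79 to 1.89 in KO C22 and 1.10 to 2.80 in KO C28, and 0 of them passed. COL23A1 and COL25A1 had their highest RPKM in KO C28 Bru-seq replicate 2, at 0.0534 and 0.0505.

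The promoters of COL11A1, COL13A1 and COL7A1 are shown because these 3 genes had the lowest adjusted p-values against WT after COL5A2. Each is the 250 bases ahead of the RefSeq start on GRCh38.p14, read 5′ to 3′ on the strand of the gene, at chr1:103108523-103108772 (minus), chr10:69801656-69801905 (plus) and chr3:48595330-48595579 (minus). Capitals mark the motif TATAAA, the CCAAT box and the motif GGGCGG, on either strand.
COL11A1: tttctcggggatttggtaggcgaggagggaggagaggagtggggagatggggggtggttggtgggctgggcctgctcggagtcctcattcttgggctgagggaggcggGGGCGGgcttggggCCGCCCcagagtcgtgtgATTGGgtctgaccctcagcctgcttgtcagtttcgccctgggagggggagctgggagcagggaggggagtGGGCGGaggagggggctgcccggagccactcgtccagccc
COL13A1: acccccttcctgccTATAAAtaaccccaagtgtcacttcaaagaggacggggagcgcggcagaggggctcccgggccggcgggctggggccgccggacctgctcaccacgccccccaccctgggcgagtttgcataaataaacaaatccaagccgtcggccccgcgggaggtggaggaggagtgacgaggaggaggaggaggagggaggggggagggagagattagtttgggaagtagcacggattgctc
COL7A1: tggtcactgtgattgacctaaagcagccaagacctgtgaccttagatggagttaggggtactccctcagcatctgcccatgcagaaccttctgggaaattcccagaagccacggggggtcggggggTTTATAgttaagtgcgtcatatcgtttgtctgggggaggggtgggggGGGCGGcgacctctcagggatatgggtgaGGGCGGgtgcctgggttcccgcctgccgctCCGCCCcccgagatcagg
COL11A1 holds 3 GGGCGG and 1 CCAAT and no TATAAA. COL13A1 holds 1 TATAAA, at base 15, and neither of the others, and COL7A1 holds 1 TATAAA and 3 GGGCGG. COL5A2 has no entry in the promoter table.

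Type VI collagen forms beaded filaments close to cells from an alpha 1, an alpha 2 and a further chain. COL6A1 and COL6A2 lie 93.0 kb apart in tandem on chromosome 21. COL6A1 had 1.00, 0.777 and 9.06 CPM in KO C22, 2.27, 18.0 and 19.8 CPM in KO C28 and 0.815, 3.24 and 4.93 CPM in WT. COL6A2 had 2.44, 2.38 and 8.99 CPM in KO C22, 1.10, 10.7 and 11.3 CPM in KO C28 and 2.76, 12.6 and 5.57 CPM in WT. In Bru-seq both genes overlapped WT in both clones, except that COL6A2 was lower in both KO C22 replicates. The log2 fold changes of COL6A1 were -0.29 (KO C22, SE 0.85) and 2.13 (KO C28, SE 0.85), or 0.88 without KO C28 Bru-seq replicate 2. For COL6A2 they were -0.88 (SE 0.89) and -0.15 (SE 0.86), and the KO C28 value was -1.09 without that library and above 0 under 4 settings that keep all libraries.

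COL6A3 is the usual further chain, and had 1.62, 5.48 and 6.44 CPM in KO C22, 3.19, 9.50 and 11.0 CPM in KO C28 and 6.38, 13.6 and 12.7 CPM in WT. COL6A5 and COL6A6, its alternatives, lie 75.5 kb apart on chromosome 3. COL6A5 had 4.35, 0 and 0.225 CPM in KO C22, 1.84, 30.7 and 0 CPM in KO C28 and 2.22, 0.295 and 0 CPM in WT. COL6A6 had 4.01, 0.0914 and 0.299 CPM in KO C22, 0.858, 12.7 and 0.372 CPM in KO C28 and 0.769, 0.295 and 0.0850 CPM in WT. For both alternatives KO C28 Bru-seq replicate 2 was the highest library, and in KO C22 the Bru-seq replicates lay on either side of WT. The log2 fold change of COL6A3 was -1.29 (KO C22, SE 0.63) and -0.58 (KO C28, SE 0.63), or -0.90 in KO C28 without that library. In KO C28 COL6A5 and COL6A6 had 3.16 (SE 1.79) and 3.09 (SE 1.38), or 0.41 and 1.41 without that library, and in KO C22 1.83 (SE 1.85) and 2.03 (SE 1.34). Of the 5 type VI genes 0 passed in edgeR. At an unadjusted p under 0.05 there were 0 in KO C22 and 2 in KO C28, beside 5.86% and 10.5% of all genes.

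COL8A2, a short-chain collagen of the corneal endothelial membrane, had 0, 0.366 and 0.0749 CPM in KO C22, 0, 2.19 and 1.12 CPM in KO C28 and 0.362, 1.64 and 0.935 CPM in WT. Its values in KO C22 were low next to most other libraries, but Bru-seq ranges overlap. Fitted log2 fold changes were -2.65 (KO C22, SE 1.62) and 0.06 (KO C28, SE 1.48), or -1.21 without KO C28 Bru-seq replicate 2. COL8A1 had 2.46 (KO C22, SE 1.29) and 2.53 (KO C28, SE 1.29). Its Bru-seq levels were 0.0218 and 0.00053 RPKM in KO C22, 0.0037 and 0.0230 in KO C28 and 0.0031 and 0.00125 in WT. The higher KO C28 value was that of replicate 2. COL10A1 had at most 6 reads in a library and lies wholly under NT5DC1 on the opposite strand.

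COL18A1, at chr21:45405137-45513720, encodes a heparan sulfate proteoglycan of basement membranes and had the highest mean RPKM of the collagen genes over the 9 libraries. In WT Bru-seq alone COL11A1 had the higher mean, 3.03 RPKM against 2.22 RPKM for COL18A1. Of the length of COL18A1, 21.67% lies under 3 genes on the opposite strand, and the sources used here do not say whether counting used strand. COL18A1 had 180, 666 and 1410 CPM in KO C22, 235, 645 and 1702 CPM in KO C28 and 161, 435 and 725 CPM in WT. In all 3 lines replicate 1 of Bru-seq was the lowest library and BruUV-seq the highest, and in Bru-seq the clones overlapped WT. Bru-seq means were 423 ± 344 CPM in KO C22, 440 ± 290 CPM in KO C28 and 298 ± 194 CPM in WT (SD, n = 2 each). The log2 fold changes, 0.68 (KO C22, SE 0.60) and 0.73 (KO C28, SE 0.60), are about the size of their SE, and the KO C28 value was 0.48 without KO C28 Bru-seq replicate 2. COL15A1, the other multiplexin, was between 0.128 and 5.26 CPM, with log2 fold changes of 2.33 (KO C22, SE 1.08) and 2.79 (KO C28, SE 1.12). Its highest RPKM, 0.0269, was in KO C28 Bru-seq replicate 2. The unclassified COL26A1 and COL28A1 had fold changes of 0.48 and 1.33 on the log2 scale in KO C22, with 1.01 and 1.47 in KO C28, and did not pass. COL28A1 had its highest RPKM, 0.0533, in KO C28 Bru-seq replicate 2.

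Between the clones, 0 of 41 collagen genes passed in KO C28 against KO C22 in both assays, beside 0% of all genes in edgeR. At an unadjusted p under 0.05 there were 4, beside 5.71% of all genes, and DESeq2 called 2, beside 1.1%. Those 4 were COL11A1, with a log2 fold change of -3.23 (SE 0.62, edgeR adjusted p = 0.212), COL6A1 at 2.42 (SE 0.89), COL9A3 at 2.15 (SE 0.70) and COL14A1 at 1.88 (SE 0.83). In the same order they had -2.82, 1.34, 2.12 and 0.29 without KO C28 Bru-seq replicate 2. COL8A2 at 2.71 (SE 1.66) and COL11A2 at 2.62 (SE 1.24) differed by more than COL6A1 with wider errors. In KO C28 Bru-seq replicates 1 and 2, COL8A2 had 0 and 0.0475 RPKM, and COL11A2 had 0.0128 and 0.165 RPKM. COL5A2 differed by -0.31 (SE 0.36), COL7A1 by -0.67 (SE 0.55) and COL13A1 by -0.46 (SE 0.55). Without KO C28 Bru-seq replicate 2 the median over the 41 genes was -0.39 in place of 0.54, and 1 of 41, COL4A5, passed, beside 0.0819% of all genes.

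Ultraviolet light stalls RNA polymerase at lesions, so BruUV-seq loses signal from the far parts of long genes and keeps it near starts. Across the lines 1 of 41 collagen genes passed in BruUV-seq against Bru-seq, beside 0.447% of all genes. That gene was COL7A1, which rose 5.84-fold (log2 fold change 2.55, SE 0.47, edgeR adjusted p = 0.0453). Its 242, 176 and 13.5 CPM in BruUV-seq of KO C22, KO C28 and WT were each above both Bru-seq libraries of the line. The call was lost in 9 of 16 alternatives, which were DESeq2 size factors (adjusted p = 0.0909), a minimum mean of 50 reads (0.0566), an offset for gene length (0.0745), and leaving out Bru-seq replicate 1 or the BruUV-seq library of any 1 line (0.103 to 0.440). COL18A1 had 1.77 (SE 0.50), COL16A1 2.11 (SE 0.82), COL6A1 2.02 (SE 0.71) and COL1A1 1.90 (SE 0.59). Without KO C28 Bru-seq replicate 2, COL18A1, COL1A1 and COL6A1 passed as well, which makes 4 of 41, beside 15% of all genes.

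The difference between the assays followed gene length. Of 10 collagen genes under 50 kb, 8 were above 0 and the median log2 fold change was 1.08, beside 0.35 for the 13639 genes of that length. Of 11 between 50 and 150 kb, 3 were above 0 and the median was -0.75, beside -0.48 for 4767 genes. Of 20 collagen genes of at least 150 kb, 4 were above 0 and the median was -1.21, beside -1.09 for 2413 genes. COL25A1, the longest at 491.92 kb, had -3.37 (SE 1.08), and COL6A5, of 139.33 kb and at 0 CPM in 2 BruUV-seq libraries, had -5.79 (SE 2.08). Both were highest in KO C28 Bru-seq replicate 2, at 0.0505 and 0.143 RPKM, against at most 0.0141 and 0.0286 RPKM in the other Bru-seq libraries. Without that library COL6A5 had -4.999, and the length ranges are not given without it. COL5A2, COL11A1 and COL4A5 had -0.75 (SE 0.32), -0.72 (SE 0.51) and -1.49 (SE 0.66). The median over all 41 was -0.47, beside -0.03 for all genes. It was -0.097, beside -0.096, without KO C28 Bru-seq replicate 2, and with the replicate block -0.012, beside -0.02.

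**Figure D5:**
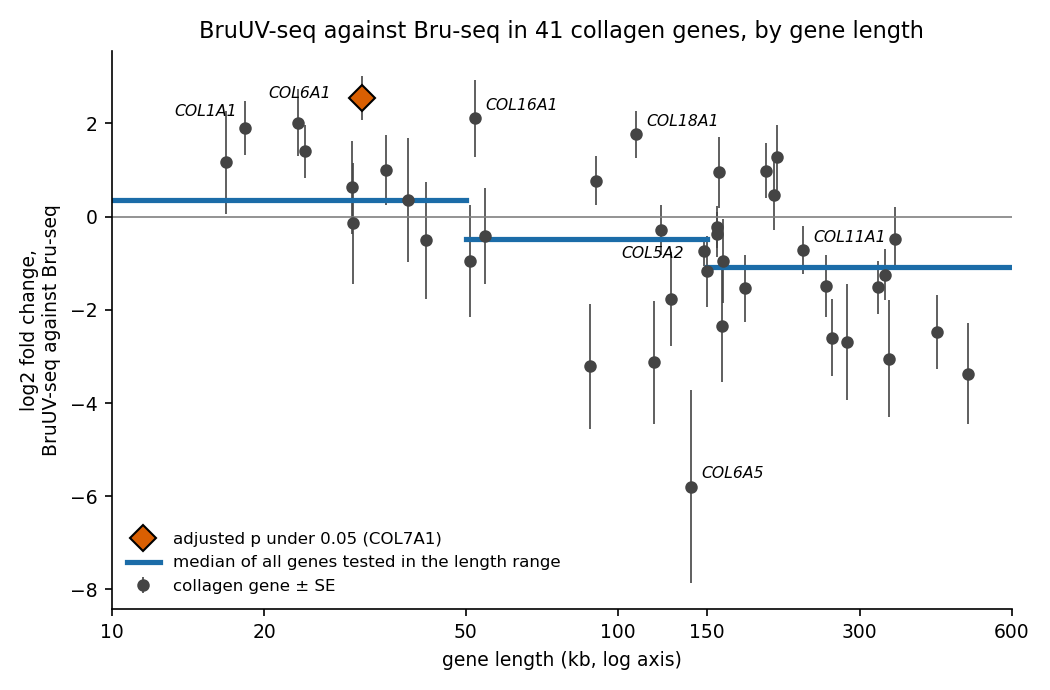
Log2 fold change of BruUV-seq against Bru-seq (y axis, bars 1 SE) of the 41 collagen genes by gene length in kb (log axis), with horizontal lines for the median of all genes in 3 length ranges. COL7A1, at 31.2 kb and 2.55, is the one that passed, and most genes of 150 kb or more lie below 0.

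The enzymes that modify, fold, cut and crosslink procollagen were described by a list of 36 genes, of which 35 were tested. In KO C22 against WT in both assays 0 passed, 21 were above 0 and the median log2 fold change was 0.18. Over all genes tested 0.178% passed, 51.5% were above 0 and the median was 0.03. In KO C28 1 fell, 22 were above 0 and the median was 0.28. Over all genes 0.125% passed there, 47.1% were above 0 and the median was -0.06. Values of the list without KO C28 Bru-seq replicate 2 are not given. The gene that fell was PLOD2, a lysyl hydroxylase of collagen telopeptides. PLOD2 had 90.4, 228 and 59.8 CPM in KO C22, 59.2, 75.6 and 28.6 CPM in KO C28 and 385, 555 and 301 CPM in WT. Every KO library lay below every WT library, and the log2 fold change was -1.78 (KO C22, SE 0.43, edgeR adjusted p = 0.199) and -3.04 (KO C28, SE 0.45, edgeR adjusted p = 0.0282). The KO C28 call was lost in 6 of 16 alternatives, each one leaving out a library: any 1 of the WT libraries, KO C28 Bru-seq replicate 1 or the BruUV-seq library of either clone, at adjusted p-values of 0.0791 to 0.302. ADAMTS14, a procollagen N-proteinase, had 13.8, 62.1 and 37.3 CPM in KO C22, 35.5, 24.7 and 54.4 CPM in KO C28 and 3.03, 6.86 and 3.53 CPM in WT. All its KO libraries lay above all WT libraries, with log2 fold changes of 3.09 (SE 0.60, edgeR adjusted p = 0.0779) and 3.07 (SE 0.61, edgeR adjusted p = 0.0996). TLL1, a procollagen C-proteinase, had 6.11, 9.28 and 4.12 CPM in KO C22, 24.8, 28.2 and 8.82 CPM in KO C28 and 2.62, 2.74 and 1.78 CPM in WT. Its log2 fold change was 1.46 (KO C22, SE 0.48) and 2.95 (KO C28, SE 0.505, edgeR adjusted p = 0.0576).

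Of 10 collagen receptors 9 were tested. In KO C22 1 rose and the median was 0.27, and in KO C28 0 passed and the median was -0.10. Over all genes tested 0.178% passed in KO C22, in either direction, and 0.125% in KO C28, with medians of 0.03 and -0.06. The receptor that rose was ITGA11, the alpha subunit of an integrin for fibrillar collagen. It had 9.46, 21.1 and 18.1 CPM in KO C22, 1.78, 4.38 and 3.13 CPM in KO C28 and 0.317, 1.26 and 0.553 CPM in WT, and all KO libraries lay above all WT libraries. The log2 fold change was 4.55 (KO C22, SE 0.75, edgeR adjusted p = 0.0419) and 2.06 (KO C28, SE 0.69, edgeR adjusted p = 0.457). Its KO C22 call was lost in 9 of 16 alternatives, with adjusted p-values up to 0.390, of which 7 leave out a library: any 1 of the 3 BruUV-seq libraries, the WT Bru-seq libraries or the KO C22 Bru-seq libraries. Of 6 collagenases and gelatinases 3 were tested and 0 passed. MMP14, a membrane-bound collagenase, had 22.4, 14.5 and 50.1 CPM in KO C22, 3.06, 16.2 and 19.8 CPM in KO C28 and 3.03, 4.88 and 3.66 CPM in WT, with log2 fold changes of 2.78 (SE 0.64) and 1.52 (SE 0.61).

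Markers of the stromal cells that make collagen in tumours had low levels. The summed level of 12 fibroblast and stellate cell markers was 11.9, 4.75 and 18.4 CPM in KO C22, 2.70, 34.8 and 9.72 CPM in KO C28 and 7.83, 7.28 and 7.52 CPM in WT. The highest value was in KO C28 Bru-seq replicate 2, where the 7 ductal markers summed to 2518 CPM, against 191 to 1402 CPM in the other libraries. In the same library 4 endothelial markers summed to 22.4 CPM and 4 leukocyte markers to 7.31 CPM, against at most 3.80 and 2.82 CPM elsewhere. No marker was at 0 in all 9 libraries. Of the markers tested in both assays, 0 of 6 fibroblast, 0 of 7 ductal, 0 of 2 endothelial and 0 of 1 leukocyte passed in either clone. The part these markers play in the collagen values was not tested.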

How the data were processed

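Nascent RNA labelled with bromouridine was sequenced from 9 PANC-1 libraries. In the files the authors deposited, each gene has an estimated count of reads over its whole body, which is close to but not always a whole number, and an RPKM value, per the file headers and values. The submitters' processing notes name CASAVA 1.8.2, Bowtie2 2.3.3, STAR 2.5.3a, bedtools 2.16.2 and the builds hg38 and GRCh38. The role of each, the annotation release and the use of strand in counting are not given in the sources used here. Counts include introns and reads from overlapping genes.

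The estimated counts were rounded. The members and gene lists were chosen with earlier results of these data known. Genes were filtered with filterByExpr, scaled by TMM and tested with edgeR 4.0.16 (R 4.3.3) in a fit of the 6 Bru-seq libraries (22827 genes, common biological coefficient of variation 79.3%) and a fit of all 9 with assay as a covariate (20819 genes, 63.4%). Alternatives used DESeq2 1.42.0, limma-voom (limma 3.58.1), other filters, another scaling, an offset for gene length, replicate number as a block, and each library left out. The code was tested on simulated counts. Per-library values are given for collagen genes that passed, the 8 highest by mean RPKM, those in pairs within 200 kb, and the 5 largest fold changes each way in each clone. From the lists, genes that passed or up to 4 of the largest changes are named, and around a collagen gene that passed, the tested genes within 500 kb. Same-numbered Bru-seq libraries deviated from their group means with correlations of 0.427 (KO C22 and WT), 0.004 (KO C28 and WT) and -0.479 (KO C28 and KO C22), so the numbers were not taken to pair the libraries.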

Additional observations from a re-analysis of the deposited data

How the results depend on the processing

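Counts of collagen genes that passed depended on the tool and the filter more than their directions did, and the cause was not tested. In Bru-seq the count of 0 was 2 in KO C22 with DESeq2, 3 in KO C28 with DESeq2 and 1 with no filter, and 1 in KO C28 against KO C22 with DESeq2, and it ran from 0 to 1 in the KO C28 comparisons when each library was left out. In both assays the count of 1 in KO C22 was 4 with DESeq2, 5 with no filter, 2 with a minimum mean of 50 reads and 0 to 3 with a library left out. In KO C28 the count of 1 was 8 with DESeq2, 2 with limma-voom, 12 with no filter, 2 with that minimum and 0 to 4 with a library left out. In KO C28 against KO C22 the count of 0 was 2 with DESeq2, 1 with no filter and 0 to 1 with a library left out. In BruUV-seq against Bru-seq the count of 1 was 0 with DESeq2 size factors in edgeR, 14 with DESeq2, 2 with limma-voom, 10 with no filter, 0 with that minimum, 0 with the length offset, 3 with the replicate block and 0 to 4 with a library left out. Over all genes, in both assays, the 37 calls in KO C22 were 348 with DESeq2 and 272 with no filter. The 26 in KO C28 were 711, 1100, 42 with the minimum and 49 with the block. The 0 between clones were 228, 230 and 2 with the length offset. The 93 between assays were 3941, 2326, 640 with limma-voom, 1 with DESeq2 size factors, 21 with the minimum, 0 with the offset and 903 with the block. In Bru-seq the 1 call in KO C22 was 91, 43, 2 with DESeq2 size factors and 0 with limma-voom, the 1 in KO C28 was 205 and 190, and the 0 between clones was 53 and 12. With a library left out, the calls over all genes in both assays ran from 3 to 142 in KO C22, 1 to 67 in KO C28, 0 to 18 between clones and 0 to 3305 between assays, and in Bru-seq from 0 to 22 in KO C22, 0 to 179 in KO C28 and 0 to 186 between clones.

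Signs turned in the following genes. In KO C22 COL6A1 was 0.106 with limma-voom and 0.054 with the replicate block, COL6A5 -0.846 and COL19A1 -0.059 with limma-voom. In KO C28 COL8A2 was -1.031 with limma-voom and -0.768 with the block, COL3A1 -0.997 and -1.103, and COL6A2 0.023 with DESeq2 size factors, 0.023 with DESeq2, 0.11 with the minimum of 50 reads and 0.092 with the length offset. With a library left out, KO C22 values ran from -1.67 to 0.635 for COL9A2, -0.962 to 0.084 for COL11A1, -1.114 to 0.477 for COL6A1, -1.529 to 0.223 for COL6A2, -0.485 to 2.199 for COL19A1 and -2.346 to 0.162 for COL4A6. KO C28 values ran from -1.208 to 0.836 for COL8A2, -1.172 to 0.901 for COL3A1, -0.161 to 0.753 for COL9A3, -1.093 to 0.955 for COL6A2 and -3.129 to 1.085 for COL4A6. The replicate block left 1 collagen gene called in each clone in both assays. The alternatives for PLOD2 and ITGA11 were added after seeing the data. Depth limits the 19 collagen genes that averaged under 50 reads.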
